A study of Homo sapiens with 9 samples.

Results

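The Notch genes examined here are 10 genes of HMEC-1, an established line of human dermal microvascular endothelial cells. They are the receptors NOTCH1, NOTCH2, NOTCH3 and NOTCH4, the ligands DLL4, JAG1 and JAG2, and the target genes HES1, HEY1 and HEY2. They were chosen by symbol, all 10 were found among the 29740 genes of the deposited count table, and all 10 passed the filter on low counts that left 14740 genes for testing. RNA sequencing was performed on 9 libraries, with 3 in each of 3 groups: untreated controls (CTRL), cells exposed to 50 µM trimethylamine-N-oxide (TMAO, a product of gut microbial and liver metabolism) for 24H, and cells exposed to the same dose for 48H. Treatment took place in medium with 2% foetal bovine serum. Because controls from both time-points were pooled in the study, the effect of TMAO and that of time in culture cannot be told apart in any comparison. All libraries came from a single cell line. The study's statistics section speaks of independent experiments for its experimental data in general, without naming the sequenced libraries, and the labels give only replicate numbers. If the libraries of a group were not separate cultures, the p-values measure only technical spread.

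Notch signalling passes between neighbouring cells. A ligand of the Delta or Jagged family on one cell binds a Notch receptor on the next, ADAM proteases and gamma-secretase cut the receptor, and the freed intracellular domain enters the nucleus, where it joins the DNA-binding protein RBPJ and switches on genes of the HES and HEY families. The HES and HEY proteins are transcriptional repressors. In endothelium the pathway is known for setting tip and stalk cells during sprouting and for arterial identity, with DLL4 and JAG1 acting in opposite ways on sprouting, while NOTCH3 is best known from the mural cells that wrap vessels.

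The promoters of HES1, JAG1 and NOTCH3, the genes with the smallest adjusted p among the 10, are shown here with that of HEY2, since RBPJ binds DNA at a short core and HES1 is known to repress its own promoter through sites called N boxes. RefSeq promoters (GRCh38.p14, the 250 bases before the start site) were matched for 9 of the 10 genes, all but HEY1. Each is printed 5′ to 3′ on the strand of the gene, with the RBPJ core TGGGAA, searched on both strands, in capitals.
HES1 (chr3:194135898-194136147, plus strand): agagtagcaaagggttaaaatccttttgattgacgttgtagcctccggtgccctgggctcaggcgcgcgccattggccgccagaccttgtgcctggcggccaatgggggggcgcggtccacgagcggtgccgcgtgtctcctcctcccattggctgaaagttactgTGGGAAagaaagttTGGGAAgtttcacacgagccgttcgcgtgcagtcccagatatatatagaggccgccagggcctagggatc
HEY2 (chr6:125749382-125749631, plus strand): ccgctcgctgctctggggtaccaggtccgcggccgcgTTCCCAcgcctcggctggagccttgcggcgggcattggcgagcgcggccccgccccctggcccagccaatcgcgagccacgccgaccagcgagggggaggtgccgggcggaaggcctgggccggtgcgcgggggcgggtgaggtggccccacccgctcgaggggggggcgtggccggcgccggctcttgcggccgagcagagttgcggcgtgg
JAG1 (chr20:10674000-10674249, minus strand): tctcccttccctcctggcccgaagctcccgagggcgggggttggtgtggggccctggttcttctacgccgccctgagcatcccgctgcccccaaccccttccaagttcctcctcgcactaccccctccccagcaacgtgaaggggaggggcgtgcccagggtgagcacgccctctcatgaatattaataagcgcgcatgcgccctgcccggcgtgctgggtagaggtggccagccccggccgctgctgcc
NOTCH3 (chr19:15200996-15201245, minus strand): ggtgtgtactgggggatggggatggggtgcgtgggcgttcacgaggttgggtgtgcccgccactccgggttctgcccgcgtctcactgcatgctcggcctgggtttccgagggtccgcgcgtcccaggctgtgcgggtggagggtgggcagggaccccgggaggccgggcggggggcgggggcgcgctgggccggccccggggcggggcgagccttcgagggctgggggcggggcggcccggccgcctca
The HES1 promoter held the core 2 times on the plus strand, with first bases at -84 and -70 from the start site. The HEY2 promoter held it once on the opposite strand, at -213, where it reads in reverse complement. The other 7 promoters had no match in this window. Among 35116 RefSeq promoters of the same length, 20.8% held the core at least once and 2.9% held it 2 or more times. The letters CACNAG, the form of the N box searched on both strands, occurred 3 times in the HES1 promoter, at -165, -132 and -58, and once each in those of NOTCH3 (-211) and NOTCH4 (-75), against 32% of all promoters with at least 1 match. A match describes letters only and is not a measured binding site.

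Total estimated counts per library ranged from 25205753 to 36927364. The library TMAO 24H replicate 1 stood apart, since 7 ribosomal RNA genes took 31.5% of its counts and between 1.64% and 7.46% elsewhere. Values below are CPM, counts relative to library size, after scaling by the TMM method of edgeR, and fold changes are those of the quasi-likelihood test of edgeR with Benjamini-Hochberg adjustment over all 14740 tested genes. A gene is said to have passed, risen or fallen where its adjusted p was under 0.05 at any fold change. For 1 gene alone, exact permutation of 3 against 3 libraries could reach no p below 0.1. The cells carried endothelial markers, with PECAM1 at 343 CPM and CDH5 at 698 CPM in CTRL, although CLDN5 reached 1.65 CPM, while the leukocyte markers PTPRC and CD3E had 8 counts and 0 counts in all libraries together. Of 6 leukocyte markers, only CD68 (19.7 CPM in CTRL) and CD14 (1.12 CPM in CTRL) were tested, and 0 of these 2 passed against CTRL. The summed level of the 6, mostly CD68, was 19.5 to 22.3 CPM in CTRL, 21.4 to 22.8 at 24H and 22.2 to 23.5 at 48H. That of 6 epithelial markers was 764 to 835, 721 to 766 and 629 to 710 CPM in the same order. It was mostly KRT18 (659 CPM in CTRL), which was also the 1 of them lower at 48H.

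Per transcript length, NOTCH2 and NOTCH1 were the most abundant of the 10 genes in untreated cells. Dividing CPM by the median length of each gene's GENCODE release 29 transcripts gave 47.3 ± 3.10 CPM per kilobase (SD, n = 3) for NOTCH2 and 28.3 ± 1.71 (SD, n = 3) for NOTCH1. JAG1 at 19.7 ± 0.742, NOTCH3 at 18.7 ± 1.55 and HES1 at 17.5 ± 0.520 CPM per kilobase followed (SD, n = 3 each). In this order the libraries of JAG1 overlapped those of NOTCH3, and the libraries of NOTCH3 overlapped those of HES1. JAG2 stood at 11.0 ± 0.530, NOTCH4 at 2.66 ± 0.0452 and DLL4 at 2.51 ± 0.381 CPM per kilobase (SD, n = 3 each), and NOTCH4 and DLL4 overlapped. HEY1 at 0.703 ± 0.0373 and HEY2 at 0.536 ± 0.107 CPM per kilobase were the lowest (SD, n = 3 each). Transcripts of the Jagged ligands thus stood at several times the level of those of DLL4 in these cells, while protein was not measured. The order depended on the length used. With the longest transcript, NOTCH1 came before NOTCH2, which stood at 20.9 CPM per kilobase, and NOTCH3 at 8.33 and JAG1 at 10.8 came after HES1 and JAG2, the libraries of JAG1 and JAG2 overlapping. The lower part of the order, from NOTCH4 to HEY2, was the same with both lengths.

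**Figure D1:**
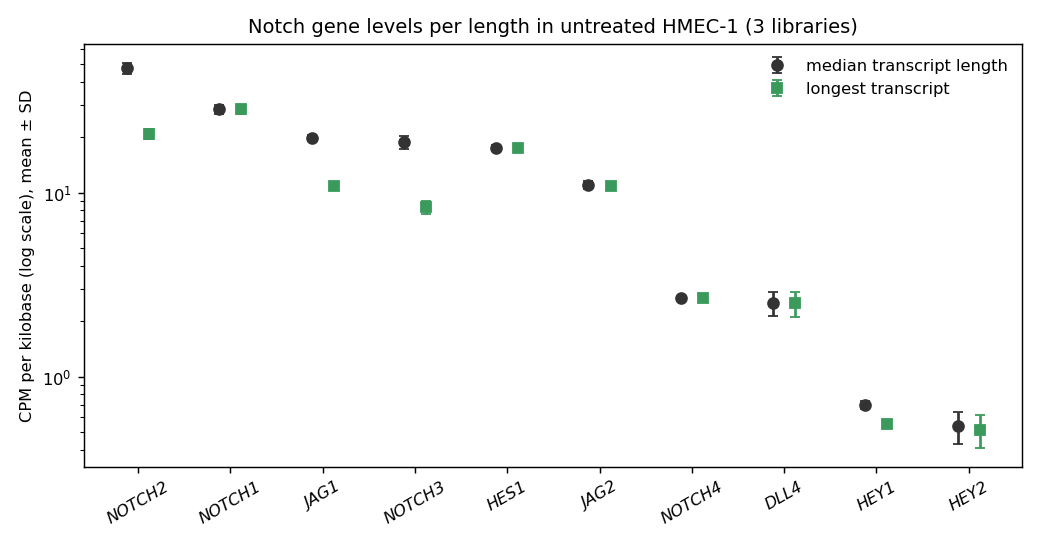
Levels of the 10 Notch genes in the 3 CTRL libraries as CPM per kilobase on a log scale, mean ± SD, with the median transcript length (circles) or the longest transcript (squares) as divisor. NOTCH2 falls from 47.3 to 20.9 CPM per kilobase with the change of length while NOTCH1, NOTCH4 and HES1 stay in place.

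The receptors are described in turn, and no test compared their changes with each other. NOTCH1, the receptor most studied in arterial endothelium, measured 278, 264 and 247 CPM in CTRL replicates 1 to 3, 233, 224 and 244 CPM at 24H, and 221, 236 and 254 CPM at 48H. All 3 libraries at 24H lay below all 3 controls, while CTRL and 48H overlapped. The log2 difference from CTRL was -0.17 at 24H (standard error 0.0573, adjusted p = 0.52) and -0.15 at 48H (standard error 0.0573, adjusted p = 0.114), so neither passed with edgeR. The difference at 48H did pass without CTRL replicate 3 (adjusted p = 0.0456) or without TMAO 48H replicate 3 (adjusted p = 0.042).

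NOTCH2, which many cell types carry beside NOTCH1, measured 253, 240.1 and 222 CPM in CTRL, 239, 242 and 249.7 CPM at 24H, and 248, 274 and 278 CPM at 48H. Its groups overlapped at 24H and, through CTRL replicate 1, also at 48H. The log2 difference from CTRL was 0.03 at 24H (adjusted p = 0.957) and 0.16 at 48H (standard error 0.0543, adjusted p = 0.0782). The value is uncertain because NOTCH2NL, a near-identical partial copy, was counted separately with 599 to 993 counts per library, and how reads were split between them is not known. With the counts of both summed, the log2 difference at 48H was 0.18 and passed (adjusted p = 0.0427), as it did without TMAO 48H replicate 1 (0.21, adjusted p = 0.0211) and with DESeq2 (adjusted p = 0.0367).

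NOTCH3 was lower at 24H than at 48H. It measured 76.1, 75.1 and 65.3 CPM in CTRL, 57.6, 59.4 and 60.5 CPM at 24H, and 71.9, 77.0 and 80.8 CPM at 48H. The 3 libraries at 24H lay close together and below all 6 others, while CTRL and 48H overlapped. Between 24H and 48H NOTCH3 rose by 0.37 on the log2 scale (standard error 0.0606, edgeR adjusted p = 0.00189), and this passed at any fold change under every alternative run, each left-out library included. The difference of 24H from CTRL was -0.29 (standard error 0.0605, adjusted p = 0.144) and passed only with DESeq2 (adjusted p = 0.0106) or without CTRL replicate 3 (adjusted p = 0.0314). At 48H the difference from CTRL was 0.085 (adjusted p = 0.41). Among markers of mural cells and fibroblasts, PDGFRB stood at 48.0, 45.4 and 43.1 CPM in CTRL, at 24H and at 48H, and DCN and LUM had 2 counts and 1 count in all libraries together. The summed level of the 12 genes of that marker list was mostly COL1A1 (678 CPM in CTRL) and COL1A2 (295 CPM in CTRL). It ranged from 1060 to 1200 CPM in CTRL, from 1050 to 1120 at 24H and from 733 to 792 at 48H. Against CTRL, TAGLN and ACTA2 were higher and COL1A1 and COL1A2 lower at 48H. The part of these markers in the values of NOTCH3 was not tested.

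NOTCH4, a receptor largely restricted to endothelium, was the lowest of the 4 receptors per length. It measured 18.0, 17.6 and 18.3 CPM in CTRL, 17.3, 15.4 and 15.7 CPM at 24H, and 11.8, 13.6 and 15.6 CPM at 48H. All 3 libraries at 48H lay below all 3 controls, with TMAO 48H replicate 3 the nearest to them, and the libraries at 24H also lay below CTRL by a smaller margin. NOTCH4 fell by 0.39 on the log2 scale from CTRL to 48H (standard error 0.092, edgeR adjusted p = 0.017), while the difference at 24H was -0.15 (standard error 0.0917, adjusted p = 0.786). The call at 48H was lost without CTRL replicate 1 (adjusted p = 0.0505), CTRL replicate 2 (0.0509) or TMAO 48H replicate 2 (0.0664), and with correction for GC content (-0.31, adjusted p = 0.0546). From 24H to 48H it differed by -0.24 (adjusted p = 0.148), which passed only without TMAO 48H replicate 3 (-0.34, adjusted p = 0.0298). Exons of NOTCH4 share bases with GPSM3 on the same strand, which differed by -0.03 on the log2 scale at 48H (adjusted p = 0.847).

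**Figure D2:**
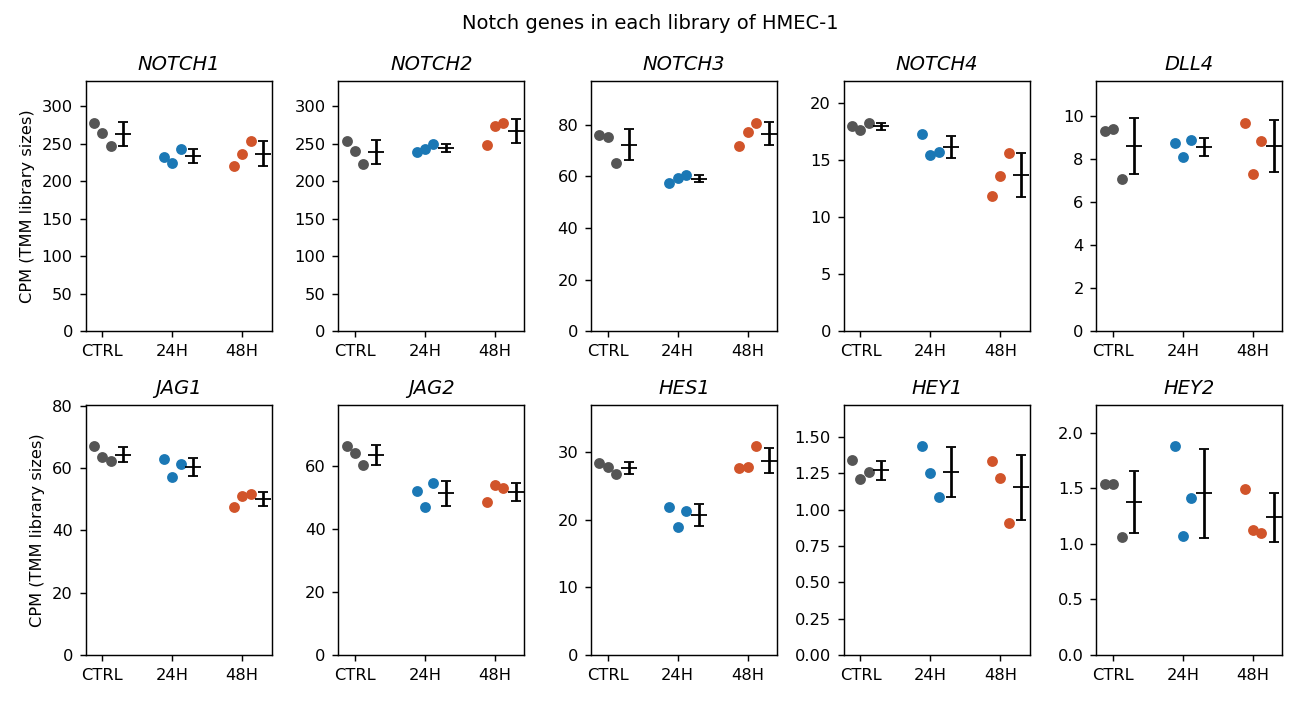
CPM of each of the 10 Notch genes in each of the 9 libraries (points, replicates 1 to 3 from left to right) with the mean ± SD of the group beside them, in CTRL, TMAO 24H and TMAO 48H, each axis starting at 0. HES1 and NOTCH3 lie lower at 24H than in both other groups, and JAG1 lies lowest at 48H. NOTCH4 lies below CTRL at 48H but overlaps 24H, and JAG2 lies lower at both time-points than in CTRL.

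Among the ligands, both Jagged genes were lower at 48H and DLL4 was not detectably different. JAG1, the Jagged ligand known to promote sprouting, measured 67.0, 63.5 and 62.3 CPM in CTRL, 62.8, 57.2 and 61.2 CPM at 24H, and 47.5, 51.0 and 51.6 CPM at 48H. The 3 libraries at 48H lay below all 6 others, whereas CTRL and 24H overlapped. JAG1 fell by 0.36 on the log2 scale from CTRL to 48H (standard error 0.0515, edgeR adjusted p = 0.000961) and by 0.27 from 24H to 48H (standard error 0.0515, adjusted p = 0.00544). Both falls passed at any fold change under every alternative run, and without single libraries the adjusted p for 48H against CTRL ranged from 0.00109 to 0.00647. At 24H the difference from CTRL was -0.09 (adjusted p = 0.78). In bulk RNA, fewer cells that carry a transcript and less of it per cell cannot be told apart. Markers of endothelium moved in the same samples, with 8 of 12 lower at 48H than in CTRL (5.29% of all tested genes) and 0 of 12 at 24H. Between 48H and 24H, 6 of 12 were lower and 1 higher (7.53% of all tested genes in either direction). Summed, these markers stood at 2640 to 2870 CPM at 48H, against 3000 to 3330 in CTRL and 2990 to 3180 at 24H. Their part in the values of JAG1 and NOTCH4 was not tested.

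JAG2, which encodes the other Jagged ligand, measured 66.3, 64.2 and 60.3 CPM in CTRL, 52.2, 47.1 and 54.7 CPM at 24H, and 48.6, 54.0 and 53.1 CPM at 48H. All 6 treated libraries lay below all 3 controls, and the libraries of the 2 time-points overlapped. The log2 difference from CTRL was -0.31 at 24H (standard error 0.0619) and -0.29 at 48H (standard error 0.0619), nearly the same size. It passed at 48H (edgeR adjusted p = 0.00989) and not at 24H (adjusted p = 0.12), where DESeq2 did call it (adjusted p = 0.00476). Between 48H and 24H it was 0.01 (standard error 0.0619, adjusted p = 0.925). The call at 48H held without each library in turn and was lost with correction for GC content (-0.19, adjusted p = 0.0926).

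DLL4, the Delta ligand of tip cells and arteries, measured 9.31, 9.39 and 7.09 CPM in CTRL, 8.73, 8.08 and 8.86 CPM at 24H, and 9.68, 7.30 and 8.81 CPM at 48H. The groups overlapped throughout and their means lay between 8.56 and 8.60 CPM. The log2 difference from CTRL was -0.01 at 24H (standard error 0.127, adjusted p = 0.994) and -0.0015 at 48H (standard error 0.127, adjusted p = 0.997). The standard error was more than 2 times that of JAG1, so a change of the size seen for JAG1 would have been harder to detect.

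HES1, the target best detected of the 3, fell at 24H and stood near control level at 48H. It measured 28.4, 27.8 and 26.8 CPM in CTRL, 21.9, 18.9 and 21.2 CPM at 24H, and 27.6, 27.7 and 30.8 CPM at 48H. The 3 libraries at 24H lay below all 6 others, with TMAO 24H replicate 2 the lowest, and CTRL and 48H overlapped. From 27.6 ± 0.821 CPM in CTRL (SD, n = 3) HES1 fell to 20.7 ± 1.57 CPM at 24H (SD, n = 3), a log2 difference of -0.42 (standard error 0.0684, edgeR adjusted p = 0.0454). From 24H to 48H it rose by 0.47 on the log2 scale, or 1.39-fold (standard error 0.0685, adjusted p = 0.00077). At 48H its difference from CTRL was 0.05 (adjusted p = 0.668).

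The fall of HES1 at 24H lay close to the threshold and the rise from 24H to 48H did not. Without single libraries the fall kept its direction and gave an adjusted p of 0.218 (CTRL replicate 1), 0.258 (CTRL replicate 2), 0.0779 (CTRL replicate 3), 0.0553 (TMAO 24H replicate 1), 0.291 (TMAO 24H replicate 2), 0.102 (TMAO 24H replicate 3) and 0.0716 (TMAO 48H replicate 2). DESeq2 gave 0.000345 for the same difference, and the log2 difference without TMAO 24H replicate 1, the library rich in ribosomal RNA, was -0.46. The rise from 24H to 48H passed at any fold change under every alternative run.

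HEY1 and HEY2, the targets most often linked to arterial endothelium, were near the lower end of detection. HEY1 measured 1.34, 1.21 and 1.26 CPM in CTRL, 1.44, 1.25 and 1.09 CPM at 24H, and 1.34, 1.22 and 0.908 CPM at 48H, from 24 to 42 counts per library. HEY2 measured 1.54, 1.54 and 1.06 CPM in CTRL, 1.88, 1.07 and 1.41 CPM at 24H, and 1.49, 1.13 and 1.10 CPM at 48H, from 29 to 51 counts per library. For both genes every pair of groups overlapped. The log2 differences of HEY1 were -0.02 at 24H (standard error 0.214, adjusted p = 0.992) and -0.14 at 48H (standard error 0.217, adjusted p = 0.745). Those of HEY2 were 0.07 at 24H (standard error 0.248, adjusted p = 0.982) and -0.16 at 48H (adjusted p = 0.748). With standard errors above 0.2, a change of the size seen for HES1 was not detectable in HEY1 or HEY2 at this depth.

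Counted together, the 10 genes gave calls that were all below 1.4-fold. At 24H, 1 of 10 passed (HES1, lower), against 0.0950% of all tested genes, and 4 of 10 had an unadjusted p under 0.05, all lower, against 4.47% of all tested genes in that direction. At 48H, 3 of 10 passed against CTRL (NOTCH4, JAG1 and JAG2, all lower), where 10.4% of all tested genes passed and 5.29% passed as lower. Between 48H and 24H, 3 of 10 passed, HES1 and NOTCH3 higher and JAG1 lower, against 7.53% of all tested genes, 3.77% as higher. With a change of at least 1.4-fold also required, 0 of 10 passed with edgeR in any comparison. The shares of all genes were 0.0475% at 24H, 1.80% at 48H and 1.71% between 48H and 24H. The study's methods give this threshold, applied to DESeq2 results, while captions in its supplement also give a slightly lower log2 cut. The log2 differences of HES1 at 24H (-0.42) and between 48H and 24H (0.47) exceed that lower cut. The number of the 10 genes whose groups did not overlap was 5 at 24H, 3 at 48H and 3 between 48H and 24H, where 14.2%, 27.8% and 27.6% of all tested genes did not overlap. The median log2 difference of the 10 genes was -0.12 at 24H, -0.14 at 48H and 0.01 between 48H and 24H. For all tested genes it was -0.0004, 0.004 and 0.004. The comparisons of 24H and 48H with CTRL share their controls, and each comparison's values are set side by side for that reason.

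**Figure D3:**
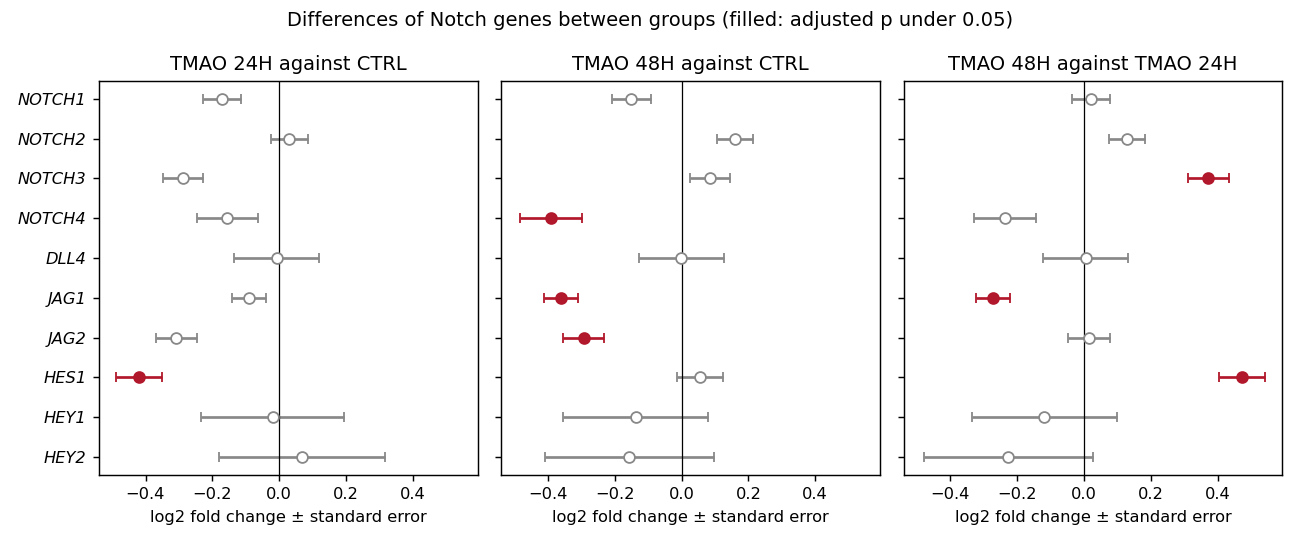
Log2 fold change ± standard error of the 10 Notch genes in TMAO 24H against CTRL, TMAO 48H against CTRL and TMAO 48H against TMAO 24H (edgeR, filled where the adjusted p was under 0.05). HES1 and NOTCH3 lie left of 0 at 24H and right of 0 between 48H and 24H, JAG1 and NOTCH4 lie left of 0 at 48H, and the bars of HEY1 and HEY2 are the widest.

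The 10 genes differ in the GC content of their transcripts, and a correction for GC content by design moves genes of similar content alike. JAG2 (64.0%), NOTCH3 (63.1%), NOTCH1 (62.9%), NOTCH4 (61.7%) and DLL4 (59.7%) have GC-rich longest transcripts, whereas HES1 (49.9%), JAG1 (49.6%), NOTCH2 (49.4%), HEY2 (47.6%) and HEY1 (47.3%) do not. After removal of a trend on GC content in each library, the difference at 48H moved from -0.15 to -0.06 for NOTCH1, from 0.085 to 0.18 for NOTCH3, from -0.39 to -0.31 for NOTCH4 and from -0.29 to -0.19 for JAG2. For JAG1 it was -0.36 without and -0.37 with the correction (adjusted p = 0.00043), and for HES1 at 24H -0.42 with both (adjusted p = 0.0259 with the correction). Of the 3 calls at 48H, JAG1 alone passed with the correction.

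**Figure D4:**
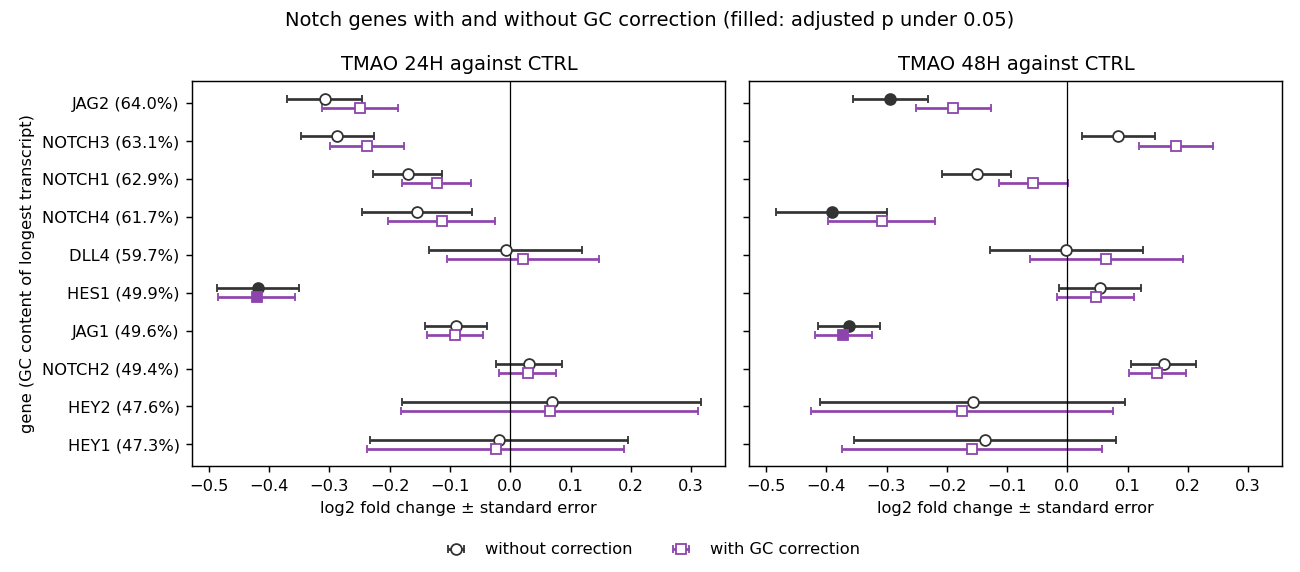
Log2 fold change ± standard error of the 10 Notch genes against CTRL at 24H and 48H, without (circles) and with (squares) correction for GC content, ordered by the GC content of the longest transcript, filled where the adjusted p was under 0.05. At 48H the GC-rich genes in the upper rows shift to the right, JAG2 from -0.29 to -0.19, and JAG1 stays at -0.36 to -0.37.

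Over the 9 libraries, some of the 10 genes followed each other closely. The Pearson correlation of log2 CPM was 0.914 between HES1 and NOTCH3, 0.913 between NOTCH1 and JAG2 and 0.908 between NOTCH4 and JAG1, each a description over 9 libraries that share their group differences and their depth. The genes with the most similar pattern among all those tested were EGR1 (0.982), EDN1 (0.976) and CTGF (0.972) for HES1. EGR1 and CTGF are quickly induced genes and EDN1 encodes the vasoconstrictor endothelin-1. For NOTCH3 they included TGFB2 (0.989) and SCMH1 (0.977), and for JAG1 they were LRCH4 (0.989), LOC100506621 (0.984) and COL5A1 (0.974).

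Beyond the 10 genes, 78 other genes of the pathway and its endothelial context were taken as 9 lists, and 72 of them were tested. All are called pathway genes below for short, although the list of arterial and venous genes describes vessel identity. At 24H 0 of 72 passed with edgeR, 7 had an unadjusted p under 0.05, all lower (4.47% of all tested genes), and DESeq2 called 1. At 48H 23 of 72 passed against CTRL, 6 higher and 17 lower, where 10.4% of all tested genes passed. Of these 23, 7 came from the list of arterial and venous genes. Between 48H and 24H 13 of 72 passed, 4 higher and 9 lower, where 7.53% of all tested genes passed. The median log2 difference over the 72 genes was -0.02 at 24H and 0.0009 at 48H, close to that of all genes.

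Genes that act on the receptors and ligands showed single changes at 48H. LFNG, the Fringe enzyme that adds sugars to Notch and alters which ligand it prefers, was the only one of 6 glycosylation genes to pass, and fell from 10.4 CPM in CTRL to 7.21 CPM at 48H (log2 difference -0.53, adjusted p = 0.00194). Of 9 protease genes, the convertase FURIN fell (-0.17, adjusted p = 0.018) and the gamma-secretase subunit APH1B rose (0.21, adjusted p = 0.0152). ADAM10, the protease that sheds the receptor, differed by 0.07 (adjusted p = 0.266). Of 4 ligases that drive ligand uptake, NEURL1B rose from 16.2 to 21.8 CPM (0.43, adjusted p = 0.00704) and MIB2 fell (-0.23, adjusted p = 0.00795). Among 5 other ligands tested, DNER fell from 0.969 to 0.513 CPM at 48H (-0.91, adjusted p = 0.0483), a low level that passed in few of the alternatives, and MFAP2 fell between 24H and 48H (-0.42, adjusted p = 0.021).

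RBPJ stood at 71.9 CPM in CTRL, 70.8 CPM at 24H and 73.8 CPM at 48H, and its log2 difference at 48H was 0.04 (adjusted p = 0.708). Of 9 genes of the nuclear complex, the acetyltransferase KAT2B rose (0.22, adjusted p = 0.0184) and KAT2A fell (-0.17, adjusted p = 0.0472) at 48H. Among the corepressors, TLE1 (-0.28, adjusted p = 0.00944) and CTBP1 (-0.19, adjusted p = 0.0109) fell and 0 rose. Of 11 tested genes of receptor turnover and inhibition, DTX4, a Deltex ubiquitin ligase, fell from 39.3 to 28.4 CPM (-0.47, adjusted p = 7.3e-05) and DVL1 fell as well (-0.23, adjusted p = 0.0309). The Deltex family member DTX3L, which is also induced by interferon, rose from 62.4 to 77.7 CPM (0.32, adjusted p = 0.00102), and the ligase ITCH rose (0.13, adjusted p = 0.0277).

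Among 6 other HES and HEY family genes and targets tested, HEYL rose at 48H while the rest did not pass. HEYL, the third HEY gene, measured 1.70, 1.74 and 1.99 CPM in CTRL, 1.58, 1.73 and 1.32 CPM at 24H, and 2.68, 3.01 and 2.80 CPM at 48H. The libraries at 48H lay above all 6 others. The log2 difference was 0.65 against CTRL (standard error 0.165, adjusted p = 0.0247) and 0.87 against 24H (standard error 0.166, adjusted p = 0.00571). HES4 measured 19.5, 22.0 and 25.4 CPM in CTRL, 10.2, 14.7 and 16.4 CPM at 24H, and 20.9, 23.1 and 13.0 CPM at 48H. Its libraries at 24H lay below CTRL, with a log2 difference of -0.69 that did not pass (standard error 0.194, adjusted p = 0.446). NRARP, a target that limits the pathway, differed by -0.06 at 24H (adjusted p = 0.917) and -0.15 at 48H (adjusted p = 0.157).

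Genes of arterial and venous endothelium gave the most calls of any list. At 48H 7 of 10 tested genes were lower, against 5.29% of all tested genes, and 0 were higher. NRP1, a co-receptor for VEGF and semaphorins, measured 136, 136 and 122 CPM in CTRL, 139, 134 and 142 CPM at 24H, and 83.7, 87.7 and 85.4 CPM at 48H. It fell by 0.62 on the log2 scale against CTRL (adjusted p = 1.13e-05) and by 0.70 against 24H (adjusted p = 2.96e-06). SOX17, a transcription factor of arteries, fell from 26.7 to 17.2 CPM (-0.64, adjusted p = 7.89e-05), and the netrin receptor UNC5B fell from 40.1 to 27.7 CPM (-0.53, adjusted p = 0.000217). The venous genes NR2F2 (-0.17, adjusted p = 0.0319), EPHB4 (-0.21, adjusted p = 0.0192) and NRP2 (-0.33, adjusted p = 0.0112) and the lymphatic receptor FLT4 (-0.24, adjusted p = 0.0406) fell too. Genes of both vessel types were thus among those lower, but each of the venous and lymphatic calls was lost without some single library. The calls of NRP1, SOX17 and UNC5B held without each library in turn. EFNB2, the arterial ligand that pairs with EPHB4, differed by -0.10 (adjusted p = 0.326). The fall of 8 of 12 endothelial markers at 48H, given above, ran alongside, and its part in these values was not tested.

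Between 48H and 24H, the 13 genes that passed included LFNG (-0.43, adjusted p = 0.0076), NEURL1B (0.44, adjusted p = 0.00687), DTX4 (-0.46, adjusted p = 5.09e-05), DTX3L (0.29, adjusted p = 0.00143), SOX17 (-0.45, adjusted p = 0.000701) and UNC5B (-0.50, adjusted p = 0.0002). Correction for GC content ended 12 of the 23 calls at 48H, among them DNER, APH1B, FURIN, MIB2, KAT2A, KAT2B, CTBP1, DVL1, ITCH, EPHB4 and FLT4. Leaving out single libraries ended 14 of the 23 in at least 1 fit, HEYL, NR2F2 and NRP2 among them. LFNG, NEURL1B, DTX3L, DTX4, NRP1, SOX17 and UNC5B passed at 48H at any fold change under every alternative run.

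**Figure D5:**
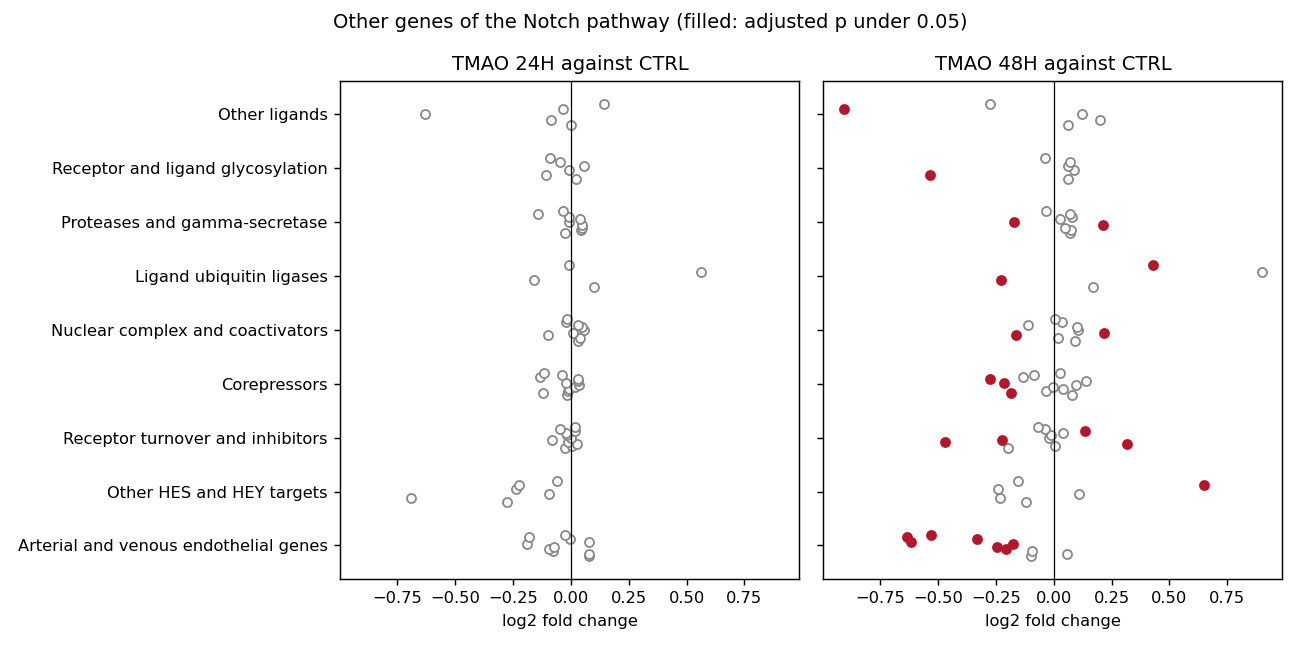
Log2 fold change of the 72 tested genes of the pathway and its endothelial context in 9 lists, in TMAO 24H against CTRL and TMAO 48H against CTRL. Each gene has a point, filled where the adjusted p was under 0.05. At 24H 0 points are filled, and at 48H 17 filled points lie left of 0 and 6 lie right of it, with 7 of those on the left in the list of arterial and venous genes.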

How the data were processed

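RNA of HMEC-1, untreated or exposed to 50 µM TMAO for 24H or 48H, was sequenced, with 3 libraries for each group. Per the labels and methods, reads were trimmed with Trim Galore and processed by the nf-core RNAseq pipeline (version 3.6). The deposited values are estimated counts for each gene, which need not be whole and were not normalised by the authors. The quantifier, genome build, annotation and strand setting are not given in the sources used here.

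Estimated counts were rounded. In R 4.3.3, edgeR 4.0.16 was run with filterByExpr, TMM factors and a quasi-likelihood fit (glmQLFit, legacy = FALSE) of all 9 libraries, and p-values were adjusted over 14740 genes. The biological coefficient of variation was 0.0744. Standard errors were derived from the F statistic. The fit was tested on simulated data. The groups came from the labels. Transcript length and GC content came from GENCODE release 29, with a value for 13837 tested genes (93.9%). Correlations used log2 CPM with a prior count of 2.

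The 10 genes, the pathway lists and the marker lists were chosen with earlier results of these data known. All 10 genes are named in every comparison, and pathway genes where the adjusted p was under 0.05, and others such as RBPJ, ADAM10, EFNB2, HES4 and NRARP were named after their values were seen. Genes of most similar pattern were sought for the 3 genes with the smallest adjusted p. Some genes that these rules select are not reported here. The labels do not say whether replicate numbers pair libraries. Deviations from group means correlated from -0.12 to 0.091 for the 9 same-numbered pairs and from -0.1 to 0.16 for the 18 others. With 3 libraries per group these values cannot decide whether libraries were paired. Alternatives were RLE size factors, other filters, DESeq2 1.42.0, the older quasi-likelihood fit, the 2 groups alone, the replicate number as a block, GC correction, removal of ribosomal RNA genes, a 1.4-fold threshold and leaving out each library.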

Additional observations from a re-analysis of the deposited data

Results flagged for a closer look

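By a direct edgeR test of TMAO 48H against TMAO 24H, 3 of the 10 Notch genes differed between the time-points, against 7.53% of all tested genes. The controls were pooled over both time-points, so TMAO and time in culture cannot be told apart in this test. HES1 was higher at 48H than at 24H by 0.47 on the log2 scale (adjusted p = 0.00077), with all 3 libraries at 48H above all 3 at 24H. NOTCH3 was higher at 48H by 0.37 (adjusted p = 0.00189), again with no overlap between the libraries of the time-points. JAG1 differed by -0.27 (adjusted p = 0.00544), and its 3 libraries at 48H lay below all 3 at 24H.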

How the results depend on the processing

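The calls for JAG1 at 48H and for HES1, NOTCH3 and JAG1 between 48H and 24H passed at any fold change under every alternative run, whereas HES1 at 24H and NOTCH4 and JAG2 at 48H did not. The replicate block was run although the labels do not say whether equal numbers mark paired libraries. It left 0 of the 10 genes passing at 24H (HES1 adjusted p = 0.173, or 0.0836 with GC correction added) and 14 pathway genes at 48H. Of all genes it left 1, 948 and 731 at 24H, at 48H and between 48H and 24H. The replicate block with GC correction left 0 and 1 of the 10 genes at 24H and 48H (NOTCH4 adjusted p = 0.108, JAG2 adjusted p = 0.177), 9 pathway genes at 48H, and 4, 644 and 699 of all genes. GC correction alone left 1 of the 10 genes and 12 pathway genes at 48H. DESeq2 called 3 of the 10 genes (HES1, NOTCH3 and JAG2), 1 pathway gene and 55 of all genes at 24H. A fit of only the 2 groups compared called 22 of all genes at 24H and 981 at 48H, with 15 pathway genes. With a 1.4-fold threshold, 0 of the 10 genes passed in each comparison, with 7, 265 and 252 of all genes. Leaving out single libraries gave 0 to 1, 2 to 4 and 3 to 4 of the 10 genes in the 3 comparisons, 0 to 0, 9 to 24 and 9 to 15 pathway genes, and 0 to 24, 700 to 1595 and 558 to 1281 of all genes. The lowest counts of all genes came without TMAO 24H replicate 2 at 24H, TMAO 48H replicate 2 at 48H and TMAO 24H replicate 3 between them, and the lowest pathway count at 48H without CTRL replicate 2. The cause of these shifts was not tested. Summing NOTCH2 with NOTCH2NL was chosen after seeing the data.

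Differences close to 0 changed sign. DLL4 moved to 0.021 with GC correction and 0.027 with the block added at 24H, to 0.065 and 0.0645 at 48H, and between 48H and 24H to -0.0029 with DESeq2, -0.0018 with the 2 groups alone and -0.015 without ribosomal RNA genes. Without single libraries, DLL4 ranged from -0.13 to 0.061 at 24H, -0.13 to 0.11 at 48H and -0.088 to 0.11 between them, HEY1 from -0.12 to 0.077, -0.25 to 0.0048 and -0.23 to 0.023, HEY2 from -0.15 to 0.25 at 24H, NOTCH2 from -0.015 to 0.076 at 24H, and, between 48H and 24H, NOTCH1 from -0.032 to 0.069 and JAG2 from -0.043 to 0.063. Counts of 24 to 51 per library limit HEY1 and HEY2.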
